A study of Saccharomyces cerevisiae with 15 samples.

Results

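The genes described here encode transporters, or relatives of transporters, for lactate, pyruvate, acetate and other small carboxylic acids in the budding yeast Saccharomyces cerevisiae. They are JEN1 (YKL217W), ADY2 (YCR010C, also called ATO1), ATO2 (YNR002C), ATO3 (YDR384C), MCH1 (YDL054C), MCH2 (YKL221W), MCH4 (YOL119C) and MCH5 (YOR306C). Members were found by these symbols in the annotation of the array, which gave 8 of the 5449 S. cerevisiae genes measured. Each had 1 probe set, none of which is of the kind marked as binding several genes.

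The study compared 3 groups of BY4741 cells, with 5 biological replicates per group on 15 Affymetrix Yeast Genome arrays. This is a haploid strain of mating type a used in many laboratories. All cells were grown with shaking at 30 °C in YPD, a rich medium, with 2% glucose and were collected at day 3, and a Percoll gradient then sorted them by buoyant density. The groups are WT high density (dense cells of the wild type), WT low density (light cells of the wild type) and Rho0 low density (light cells of a Rho0 derivative, which has lost its mitochondrial DNA and cannot respire). The labels do not say how the Rho0 strain was made or whether it is 1 clone, and no dense Rho0 cells are among the samples. Values are log2 signals, so a difference of 1 is a 2-fold change. They are relative to the other transcripts of an array, and they compare 1 gene between groups, not 1 gene with another.

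Cells that have used up glucose turn to ethanol, acetate and lactate, which they can only burn in mitochondria. Jen1 is a proton symporter of the plasma membrane for lactate, pyruvate and acetate, whose gene is repressed by glucose and whose protein is ubiquitinated and removed from the membrane when glucose returns. Ady2, Ato2 and Ato3 belong to a family of acetate transporters that has also been linked to the export of ammonium from starving colonies. The Mch proteins resemble the monocarboxylate permeases of mammals, but yeast mutants without them showed no defect in monocarboxylate uptake, and Mch5 is known as the riboflavin transporter of the plasma membrane.

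The sample labels were checked with marker genes. Of the genes that BY4741 carries as deletions, URA3 and MET17 had means under the background level of 2.56 log2 in every group. That level is the 95th percentile of the fission yeast probe sets on the array. LEU2 had means close above it, at 2.67, 2.90 and 2.70 log2 in WT high, WT low and Rho0 low density. HIS3 had means of 6.09, 5.98 and 5.87 log2 in the same order, well above that level, and the reason for its signal was not tested. Of 6 genes specific to cells of mating type a, 5 in WT high density and 6 in each other group were above the background level. Of 4 genes specific to the opposite mating type, 4 in WT high density and 3 in each other group were above it too. A count over this level therefore does not tell the mating types apart. Some controls shifted with the groups. At the 5′ end of 25S ribosomal RNA, WT low density read 3.49 log2 above WT high density, and Rho0 low density read -3.61 log2 against WT low density. The probe set at its middle differed by 3.18 and -0.88 log2 in these comparisons, and that at its 3′ end by 0.21 and 0.09. Between Rho0 low and WT high density the 5′, middle and 3′ probe sets differed by -0.12, 2.29 and 0.30 log2. Probe sets for 18S ribosomal RNA were 0.63 to 0.73 log2 lower in Rho0 low density than in WT low density, and the mean of the poly-A spike-ins, RNAs added to each sample, was 0.68 log2 lower. The part of these shifts in the results below was not tested, but for the 8 transporter genes results under a scaling of the arrays to the spike-ins are given wherever they end a call or turn the direction of a called difference.

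Light wild-type cells had a lower signal than dense ones for 5 of the 8 genes and a higher one for none, at an adjusted p under 0.05 in limma. Of all genes 67.2% passed that test, 41.1% lower and 26.2% higher. The 5 members were also those whose groups did not overlap, which held for 47.9% of all genes and, in the lower direction, for 28.3%. MCH2 was 16.3-fold lower, ATO3 3.68-fold, JEN1 1.87-fold, MCH5 1.76-fold and ADY2 1.32-fold. As these are pools of cells, fewer cells with a transcript and less of it per cell cannot be told apart, here or below.

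Light Rho0 cells were lower than light wild-type cells for 7 of the 8 genes and higher for none, while 67.3% of all genes passed, 22.7% lower and 44.6% higher. The groups of these 7 did not overlap, as for 57.2% of all genes, or 19.3% in the lower direction. ADY2 was 28.9-fold lower, ATO3 5.32-fold and JEN1 4.23-fold. All 8 were lower in Rho0 low density than in WT high density without overlap, though for MCH4 the nearest values were 0.0006 log2 apart. There 72.4% of all genes passed, 34.4% lower and 37.9% higher. The groups of 58.9% of all genes did not overlap, 27.5% in the lower direction. In that comparison strain and density change together and cannot be told apart. The median log2 difference of the 8 genes in the 3 comparisons was -0.61, -1.32 and -2.56, and that of all genes -0.17, 0.25 and 0.03. After a shift of the arrays to equal spike-in means 5, 5 and 7 members were lower and, in the second comparison, 1 was higher. A shift to equal medians of the S. cerevisiae genes left 4, 7 and 8 lower.

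**Figure D1:**
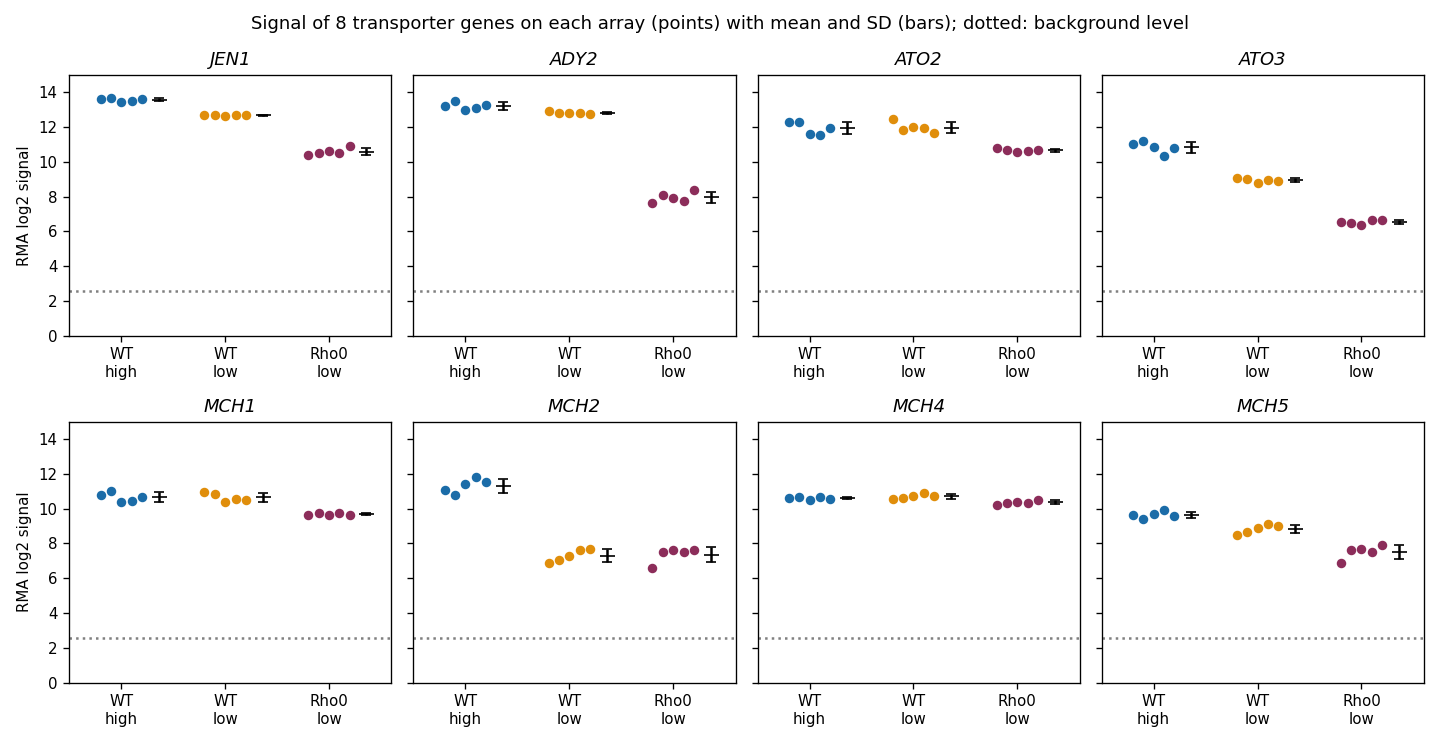
RMA log2 signal of the 8 genes (vertical axis) on each of the 15 arrays (points), by group, with the mean and SD of 5 arrays beside them and the background level as a dotted line. JEN1, ADY2, ATO3 and MCH5 step down from WT high to WT low to Rho0 low density cells, MCH2 drops once between dense and light wild-type cells, and all points lie above the background level of 2.56.

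JEN1, for the lactate and pyruvate symporter, had the smallest spread of the members in WT low density, with an SD of 0.02 log2. Its log2 signal in WT high density replicates 1 to 5 was 13.59, 13.69, 13.43, 13.52 and 13.61. The WT low density arrays read 12.70, 12.66, 12.63, 12.67 and 12.67, and those of Rho0 low density 10.38, 10.52, 10.61, 10.53 and 10.89. No value of one group lay within the range of another, and the order was dense wild type, light wild type, light Rho0. The difference between WT low and WT high density was -0.91 ± 0.11 log2 (difference ± SE, limma adjusted p = 5.49e-07), and 18.8% of all genes fell further. From WT low density to Rho0 low density it fell a further 4.23-fold (-2.08 ± 0.11 log2, limma adjusted p = 8.25e-12), and 2.81% of genes fell further. The fall from WT high density was 7.91-fold, with a 95% interval from 6.78 to 9.24.

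ADY2, for the main acetate transporter of the family, was high in both wild-type fractions and low in Rho0 cells. In WT high density it read 13.19, 13.51, 12.96, 13.10 and 13.26, and in WT low density 12.89, 12.78, 12.81, 12.80 and 12.72. Those groups were apart by 0.07 log2 at their nearest values. The difference of -0.40 ± 0.14 log2 passed the test (limma adjusted p = 0.0144) but ended at -0.28, without a call, when arrays were shifted to the same median of the S. cerevisiae genes. Rho0 low density arrays read 7.64, 8.07, 7.91, 7.75 and 8.38, and the lowest WT low density value was 4.35 log2 above the highest of them. That fall, -4.85 ± 0.14 log2 or 28.9-fold with a 95% interval from 23.7 to 35.3, was exceeded by 7 of the 5449 genes (limma adjusted p = 2.47e-15). Compared with WT high density ADY2 was 38.2-fold lower (31.3 to 46.6), and 8 genes fell further.

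ATO2, the nearest relative of ADY2 in the yeast genome, did not show the difference between densities. Its WT high density values were 12.26, 12.30, 11.60, 11.54 and 11.96 and its WT low density values 12.44, 11.83, 11.98, 11.95 and 11.63. The groups overlapped, and the difference of 0.03 ± 0.16 log2 had a 95% interval from -0.31 to 0.38 (limma adjusted p = 0.875). The Rho0 low density signals were 10.76, 10.69, 10.55, 10.63 and 10.68, all under every wild-type value. The gene was 2.47-fold lower there than in WT low density (-1.30 ± 0.16 log2, limma adjusted p = 1.25e-06) and 2.41-fold lower than in WT high density. Its interval against WT low density, 1.94 to 3.13-fold, lay wholly under that of ADY2.

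ATO3, the third gene of this family, stepped down from each group to the next. WT high density arrays read 11.00, 11.17, 10.84, 10.35 and 10.77, WT low density arrays 9.07, 9.01, 8.80, 8.97 and 8.89, and Rho0 low density arrays 6.53, 6.51, 6.37, 6.64 and 6.63. The nearest values of neighbouring groups were 1.28 and 2.16 log2 apart. Light against dense wild-type cells stood at -1.88 ± 0.13 log2 (limma adjusted p = 6.67e-10), with 187 genes falling further. The further fall in Rho0 was 5.32-fold (-2.41 ± 0.13 log2, limma adjusted p = 2.35e-11). Over both steps the gene was 19.6-fold lower in light Rho0 than in dense wild-type cells, with a 95% interval from 16.1 to 23.7, and 24 of all genes fell further.

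MCH2, a relative of monocarboxylate permeases with no assigned substrate, differed between the wild-type fractions, and a difference between the light groups was not detected. In WT high density it read 11.04, 10.81, 11.41, 11.81 and 11.55, and in WT low density 6.86, 7.04, 7.29, 7.65 and 7.66. These groups were 3.15 log2 apart at their nearest values, and 2 of all genes fell further than its -4.02 ± 0.22 log2 (limma adjusted p = 2.25e-11). The Rho0 low density arrays read 6.61, 7.48, 7.61, 7.48 and 7.62, of which 4 lay within the range of WT low density and 1 below it. The difference between the light groups was 0.06 ± 0.22 log2, with a 95% interval from -0.40 to 0.52 (limma adjusted p = 0.821). It became 0.74 log2 with a call when arrays were shifted to equal spike-in means, and -0.20 log2 without one when they were shifted to the median of the S. cerevisiae genes. Rho0 low density was 15.6-fold below WT high density for MCH2 (11.3 to 21.5). Replicate 1 of Rho0 low density was the lowest of its group, and without it the difference from WT low density was 0.25 log2 and again not called.

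MCH5, for the riboflavin transporter, read 9.62, 9.38, 9.69, 9.90 and 9.60 in WT high density and 8.49, 8.66, 8.89, 9.09 and 9.01 in WT low density. The Rho0 low density arrays read 6.86, 7.61, 7.65, 7.49 and 7.88. The 3 groups did not overlap. Light against dense wild-type cells stood at -0.81 ± 0.17 log2 (limma adjusted p = 0.000356), and Rho0 low density against WT low density at -1.33 ± 0.17 log2 (limma adjusted p = 1.45e-06). The whole span from dense wild-type to light Rho0 cells was 4.41-fold, with a 95% interval from 3.45 to 5.64.

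MCH1, whose product has been located at the membrane of the vacuole, ran from 10.37 to 11.03 in WT high density, from 10.38 to 10.96 in WT low density and from 9.64 to 9.77 in Rho0 low density. The wild-type groups covered nearly the same range, with a difference of 0.00 ± 0.14 log2 and a 95% interval from -0.30 to 0.29 (limma adjusted p = 0.984). Rho0 low density lay under both, 1.95-fold lower than WT low density (-0.96 ± 0.14 log2, limma adjusted p = 7.52e-06). After a shift to equal spike-in means this difference was -0.28 log2 and was not called.

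MCH4, with no assigned substrate, had the group means that differed least. It ran from 10.52 to 10.69 in WT high density, from 10.57 to 10.89 in WT low density and from 10.21 to 10.52 in Rho0 low density. The wild-type groups differed by 0.09 ± 0.10 log2, with a 95% interval from -0.13 to 0.30 (limma adjusted p = 0.467). Light Rho0 cells stood at -0.34 ± 0.10 log2 against light wild-type cells (limma adjusted p = 0.0057) and at -0.26 ± 0.10 log2 against dense ones (limma adjusted p = 0.0281), but after a shift to equal spike-in means these turned to 0.34 and 0.20 log2, neither called. The second of these calls also ended without WT high density replicate 2 or 4 (-0.24 log2 each) and without Rho0 low density replicate 1 (-0.22), 2 (-0.25) or 4 (-0.25).

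**Figure D2:**
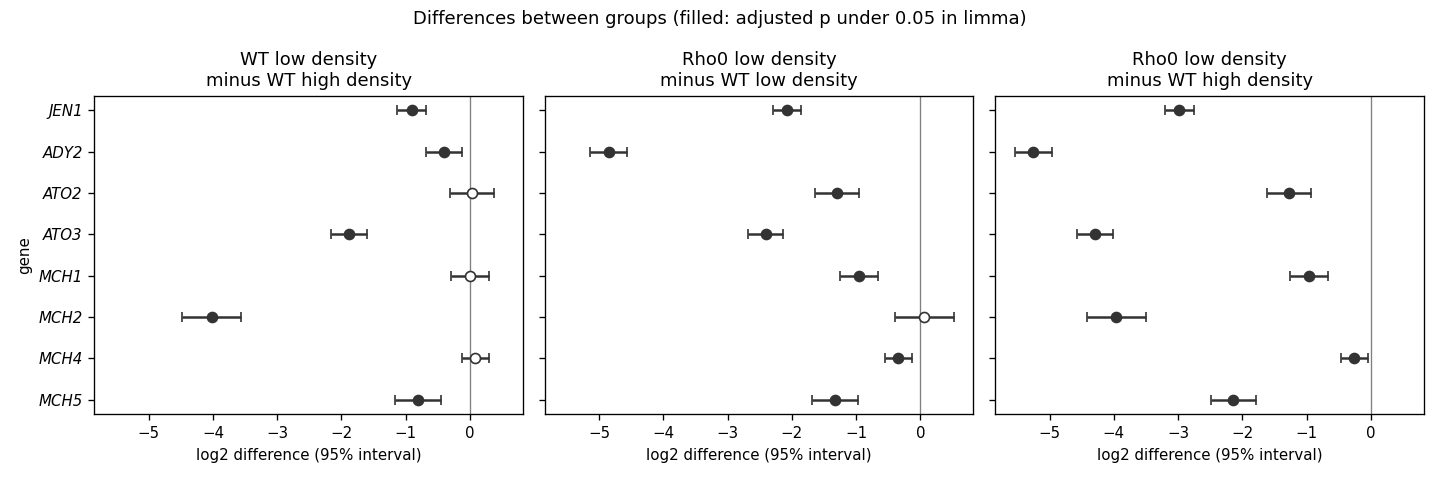
Log2 difference with its 95% interval (horizontal axis) for the 8 genes in the 3 comparisons, filled where the limma adjusted p was under 0.05. MCH2 leads the first comparison at -4.02 and lies near 0 in the second, in which ADY2 leads at -4.85. The small filled differences of MCH4, -0.34 and -0.26, turn to positive values after a shift to equal spike-in means, and that of MCH1 in the second comparison is then not called.

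Among the 28 pairs of members, likeness of pattern was measured as the root mean square difference over 15 arrays, after the mean of each gene was subtracted. The pair most alike was ATO2 and MCH1 at 0.22 log2, both level between the wild-type fractions and lower in Rho0 cells, and 8 of all genes were nearer to ATO2 than MCH1 was. JEN1 and MCH5 differed by 0.44 log2. The pair least alike was ADY2 and MCH4 at 2.26 log2. The relatives ADY2 and ATO2 differed by 1.80 log2, and ADY2 was nearer to ATO3 (1.02 log2).

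Measured the same way, the named gene most like JEN1 was AAT1, for the mitochondrial aspartate aminotransferase, at 0.19 log2, followed by MPO1 (0.20) and RMI1 (0.21). PDR12, for a pump that exports carboxylate anions, was the gene nearest to ADY2 at 0.32 log2, with OPT2, for an oligopeptide transporter, at 0.34 and FDH1, for formate dehydrogenase, at 0.36. ATO3 was nearest to FEX2, for a fluoride exporter, at 0.31, UGA4, for a permease of gamma-aminobutyrate, at 0.33 and FEN2, for the pantothenate transporter, also at 0.33. For MCH2 the list was ERR3, an enolase-related gene (0.36), SPO19 (0.48) and OCA5 (0.52), of which SPO19 had means under the background level in WT low density. Distances were smaller for the members that varied less. KNS1, PMP3 and GPN2 lay within 0.19 of ATO2, SDP1, SPG5 and NUP1 within 0.16 of MCH1, and YIP1, SEC14 and BXI1 within 0.13 of MCH4. For MCH5 the nearest were RPA190 (0.16), APS2 (0.18) and KSH1 (0.19). These are descriptions over 15 arrays whose groups the genes share, with no test.

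**Figure D3:**
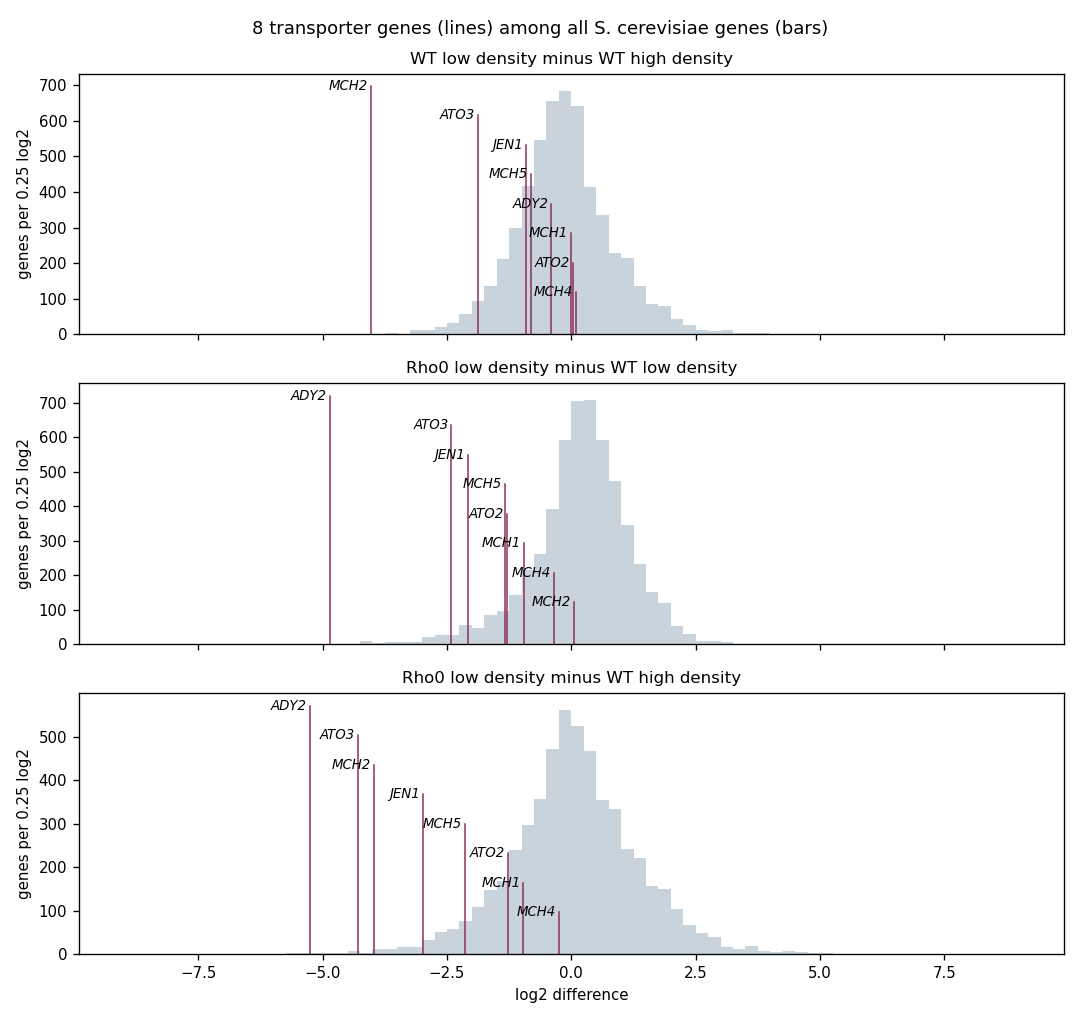
Number of S. cerevisiae genes (vertical axis) per 0.25 log2 of difference (horizontal axis) in each comparison, with the 8 transporter genes as lines. MCH2 stands in the far left tail in the first comparison, ADY2 in the second, and ADY2, ATO3 and MCH2 in the third, while MCH4 stays near the bulk of the genes.

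Counts in the lists that follow stand beside shares of all genes of 41.1% lower and 26.2% higher in the first comparison, 22.7% and 44.6% in the second and 34.4% and 37.9% in the third. Genes of ethanol and acetate use did not follow one direction. Of 7 such genes, 3 rose and 2 fell in WT low density against WT high density. ACS1 and ACS2, for the acetyl-CoA synthetases that activate acetate, went opposite ways, at -1.41 ± 0.14 and 1.45 ± 0.14 log2. The second comparison, Rho0 low density against WT low density, had 3 up and 3 down, from ALD6, for the cytosolic acetaldehyde dehydrogenase, at 1.39 ± 0.13 to ADH2, for the alcohol dehydrogenase that consumes ethanol, at -6.89 ± 0.13. That split became 4 and 1 after a shift to equal spike-in means and 2 and 4 with the S. cerevisiae median. Between Rho0 low and WT high density it was 3 and 3 again, with ACS2 at 2.72 ± 0.14 and ADH2 at -8.21 ± 0.13. The list medians in the 3 comparisons were 0.21, -0.18 and -0.04 log2, and their signs turned in all 3 with the spike-ins, to -0.02, 0.50 and 0.41.

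Genes listed as lactate dehydrogenases were read beside JEN1, whose product brings lactate in, but not each of them is known to use that lactate. CYB2, for the mitochondrial enzyme that oxidizes L-lactate, fell by 1.37 ± 0.12 log2 in WT low density, as JEN1 did, but was 0.72 ± 0.12 log2 higher in Rho0 low density than in WT low density, where JEN1 was lower. DLD1, for the mitochondrial D-lactate dehydrogenase, rose by 0.58 ± 0.25 log2 in the first comparison, a call that ended with the spike-ins, and by 1.78 ± 0.25 in the second. DLD2 was at -0.26 ± 0.11 in the first, not called (-0.48 with a call with the spike-ins), and rose by 1.33 ± 0.11 in the second. DLD3 rose by 1.61 ± 0.17 and then fell by 1.25 ± 0.17. The larger side of the list in the first comparison, 2 up and 1 down, turned to 1 and 2 with the spike-in or the fission yeast scaling and evened out at 2 and 2 with quantile normalization. In the third comparison CYB2 stood at -0.66, DLD1 at 2.36, DLD2 at 1.07 and DLD3 at 0.36 log2, the last not called. With the spike-ins the call of CYB2 ended and DLD3 was called at 0.81.

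Pyruvate enters mitochondria through a carrier built of Mpc1 with Mpc2 or Mpc3. MPC2 rose by 3.88 ± 0.11 log2 from dense to light wild-type cells and by a further 1.22 ± 0.11 in Rho0. MPC1 was at -0.28 ± 0.14 in the first comparison, not called, though a call was gained under another scaling, and rose by 1.09 ± 0.14 in the second. MPC3 fell by 0.27 ± 0.09 in the first, a call lost with the S. cerevisiae median, and was at -0.20 ± 0.09 in the second, not called, which turned to 0.49 with a call with the spike-ins. In the third comparison MPC1 stood at 0.82, MPC2 at 5.10 and MPC3 at -0.47, the last without a call with the spike-ins.

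Among 12 regulators of glucose repression and of the use of other carbon sources, 4 rose and 3 fell in the first comparison, and 5 rose and 2 fell in the second. HAP4, the activating subunit of the factor for respiratory genes, rose most in the first (2.08 ± 0.17 log2), and SIP4, for an activator of gluconeogenic genes, fell most (-1.69 ± 0.15). In the second, SNF4, for a subunit of the Snf1 kinase, rose by 1.20 ± 0.13 and HAP3 fell by 1.55 ± 0.14. The third comparison had 4 up and 3 down, with HAP4 at 2.79 ± 0.17 and SIP4 at -1.62 ± 0.15. CAT8 and ADR1, chosen after their values were seen because their products are known activators of JEN1 and ADY2, stood at 0.28 ± 0.13 and -0.02 ± 0.15 in the first comparison, neither called. Over the scalings CAT8 ran from 0.05 to 0.40 there and was called under at least 1. In the second CAT8 rose by 1.05 ± 0.13 and ADR1 was at 0.13 ± 0.15, not called (0.81 with a call with the spike-ins and -0.13 with the S. cerevisiae median). In the third CAT8 rose by 1.32 log2, a call kept under all scalings, and ADR1 was at 0.11, not called (0.56 with a call with the spike-ins). The larger side of this list turned under another scaling in all 3 comparisons, to 2 up and 4 down with the spike-ins in the first, 3 and 4 with quantile normalization in the second and 3 and 5 with the S. cerevisiae median in the third.

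Rsp5 is the ubiquitin ligase that marks permeases, Jen1 among them, for removal, and Rod1, Rog3, Bul1 and Bul2 are its adaptors. Of these 5 genes 3 fell and none rose in WT low density against WT high density, where 41.1% of all genes fell, with BUL2 at -0.93 ± 0.19 log2 (1 up and 2 down with quantile normalization). Between the light groups 3 rose and 1 fell in Rho0. BUL1 was 9.49-fold higher (3.25 ± 0.16 log2), while ROG3 stood at -0.69 ± 0.12, a call that ended with the spike-ins. The third comparison had 2 genes up and 2 down, with BUL1 at 3.48 ± 0.16 and ROG3 at -0.75 ± 0.12, again not called with the spike-ins.

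**Figure D4:**
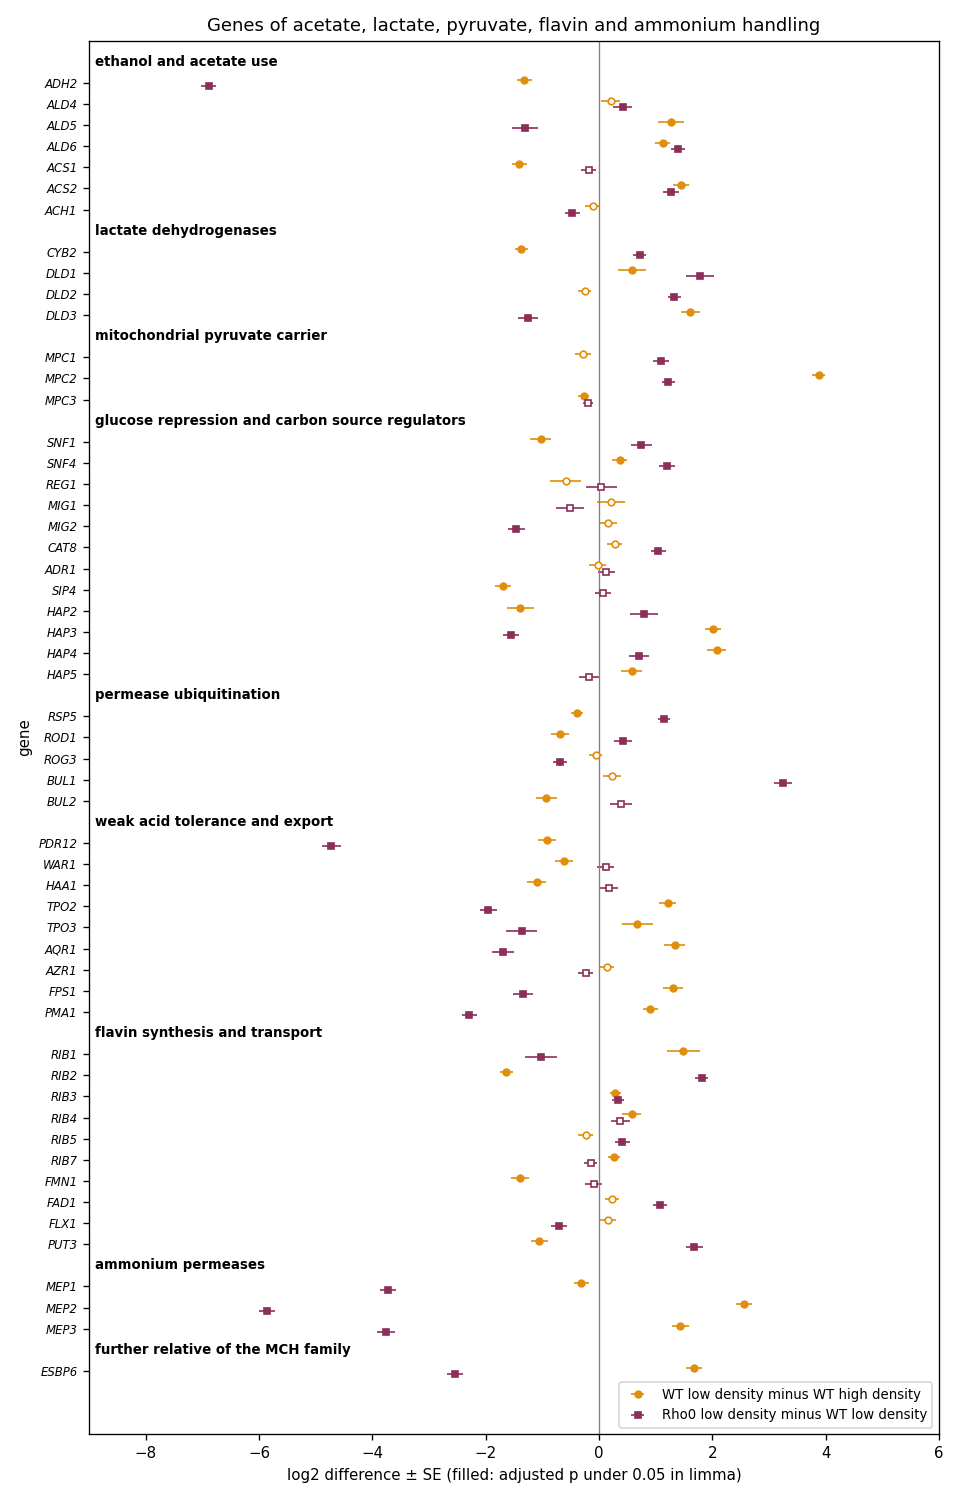
Log2 difference ± SE (horizontal axis) of the genes in 9 lists around the transporters, for WT low against WT high density (circles) and Rho0 low against WT low density (squares), filled where the limma adjusted p was under 0.05. All 3 ammonium permease genes lie far left in Rho0, MPC2 far right in WT low density, and ACS1 and ACS2 on opposite sides in WT low density. Some filled points lose their call under another scaling of the arrays, among them ALD5 and RIB1 in Rho0 with the spike-ins.

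Weak acid tolerance and export genes moved both ways between the wild-type fractions, with 5 of 9 up and 3 down. AQR1, for an exporter of short-chain acids, rose by 1.33 ± 0.19 log2, and HAA1, for the activator of acetate-stress genes, fell by 1.10 ± 0.17. Between the light groups 6 fell and none rose in Rho0 (6 down and 3 up with the spike-ins), led by PDR12 at -4.72 ± 0.16. Of all genes, 22.7% fell in that comparison. AZR1, among the 3 called up with the spike-ins (0.45 log2), had means under the background level in every group. WAR1 had a mean under it in WT low density. Relative to WT high density 6 fell as well, with PDR12 at -5.64 ± 0.16, but 2 with the spike-ins, and 34.4% of all genes fell there.

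The export of ammonium, to which the Ato proteins have been linked, has a counterpart in the ammonium permeases that take it up. MEP2 and MEP3 were 2.56 ± 0.14 and 1.43 ± 0.15 log2 higher in light than in dense wild-type cells, where ATO3 was lower, and MEP1 was at -0.31 ± 0.14, a call lost with 2 of the scalings. All 3 were lower in Rho0 low density than in WT low density, with MEP1 at -3.73 ± 0.14, MEP2 at -5.86 ± 0.14 and MEP3 at -3.76 ± 0.15. Relative to WT high density they stood at -4.04, -3.30 and -2.33 log2, all called.

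MCH5 carries riboflavin, and 10 genes of flavin synthesis and transport, with PUT3 for the known activator of MCH5, were read beside it. Of these 4 rose and 3 fell in WT low density, with RIB1, for the first enzyme of riboflavin synthesis, at 1.49 ± 0.29 log2 and RIB2 at -1.63 ± 0.12. Between the light groups 5 rose and 2 fell in Rho0, which became 3 and 3 with the S. cerevisiae median. RIB2 rose by 1.81 ± 0.12, and RIB1 fell by 1.02 ± 0.29, a call that ended with the spike-ins. In the third comparison 4 rose and 2 fell, with FAD1, for FAD synthase, at 1.31 ± 0.13 and FMN1, for riboflavin kinase, at -1.49 ± 0.16. PUT3, chosen after its values were seen, fell by 1.05 ± 0.15 in the first comparison and rose by 1.68 ± 0.15 in the second, in both of which MCH5 fell, and stood at 0.62 ± 0.15 in the third, called as well. The counts of the first comparison turned to 1 and 3 with the spike-ins and to 2 and 4 with the fission yeast scaling. ESBP6 (also called MCH3), the remaining relative of the MCH genes, rose by 1.67 ± 0.14 from dense to light wild-type cells, in which MCH2 and MCH5 fell. It was lower in Rho0 than in WT low density, at -2.54 ± 0.14. At -0.86 ± 0.14 against WT high density it was called too, but not with the spike-ins.

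Markers of other cell states moved with the groups too. Of 10 genes of sporulating cells, 9 were lower in WT low density than in WT high density, or 7 with quantile normalization or the S. cerevisiae median, and 41.1% of all genes were lower there. Their summed log2 signal per array ran from 48.4 to 49.6 in WT high density, from 38.4 to 39.4 in WT low density and from 44.3 to 45.7 in Rho0 low density. SPO11 and SPR3 had means under the background level in WT high density and WT low density, and SPS1 in WT low density and Rho0. All 4 genes specific to the opposite mating type were lower in WT low density as well (2 with quantile normalization), with summed signals from 21.9 to 23.8, 17.7 to 19.4 and 17.1 to 18.2 in the same order. MF(ALPHA)1 was under the background level in both low density groups, while SAG1 had means of 10.27, 8.97 and 9.34 log2 in the same order. Of 6 genes specific to mating type a, 5 were higher and 1 lower in WT low density than in WT high density. These counts became 4 and 1 with quantile normalization, the fission yeast median or the spike-ins, and 26.2% of all genes were higher there. The part of these shifts in the differences of the 8 transporter genes was not tested.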

How the data were processed

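RNA was labelled with biotin from 100 ng of total RNA per sample and hybridized to arrays, per the labels' protocols. RMA, run by the authors in Affymetrix Expression Console, gave the deposited log2 values, per the submitters' processing notes. Versions and the genome build are not given in the sources used here. RMA equalizes the distributions of arrays, so values are relative. The table held 10928 probe sets on 15 arrays, from 1.28 to 14.6. Of these, 5498 named 1 S. cerevisiae gene in the given annotation and the RefSeq gene table. For 47 genes with more than 1 probe set, that with the highest mean was kept. The 1746 others with 1 name were taken as fission yeast.

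Group means were fitted to all 15 arrays with lmFit and eBayes in limma 3.58.1 (R 4.3.3) with 12 residual degrees of freedom, two-sided, with Benjamini-Hochberg adjustment across 5449 genes. The number of arrays limits the precision, and the median SE was 0.15 log2. The script was tested on simulated data with independent noise and 200 changed genes. As no shift between arrays was simulated, that test does not bear on the scaling of the arrays. Members and lists were chosen with earlier results of these data known. All members are named. Of lists with 4 or fewer genes all are named, otherwise the largest called rise and fall per comparison, and for each member the 3 genes nearest in pattern. Promoter sequences were not used here. Alternatives were 4 scalings of the arrays (quantile normalization of S. cerevisiae genes, and shifts to the fission yeast median, the S. cerevisiae median or the spike-in mean), array weights, a 1.5-fold threshold (treat), trend and robust eBayes, a filter on genes under the background level, the mean of a gene's probe sets, fits of only the 10 arrays compared, each array left out and a replicate block. Their effect is given at the end.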

Additional observations from a re-analysis of the deposited data

Results flagged for a closer look

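The values of the 8 genes within each group were searched for an array far from the others, by Dixon's criterion for 5 samples, which flags about 1 in 20 groups by chance. Of 24 groups of values 1 stood out. MCH2 in Rho0 low density replicate 1 read 6.61 log2, and the next lowest array of the group 7.48. The same array held the lowest value of its group for JEN1, ADY2, MCH4 and MCH5, without passing the criterion there.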

How the results depend on the processing

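The 24 differences (8 genes in 3 comparisons) were recomputed under 26 alternatives each, and 591 of the 624 values kept their direction and their side of the threshold, 11 lost a call, 1 gained one and 21 changed sign. All sign changes concern differences not called as reported, except those of MCH4 in Rho0. After a shift to equal spike-in means, ATO2 and MCH4 between the wild-type groups went to -0.20 and -0.14 log2, and MCH4 in Rho0 went to 0.34 against WT low density and 0.20 against WT high density. With the S. cerevisiae median, MCH1 between the wild-type groups went to 0.12 and MCH2 between the light groups to -0.20, and with quantile normalization of the S. cerevisiae genes MCH2 went to -0.068. The fission yeast median gave -0.045 and array weights -0.010 for ATO2 between the wild-type groups. Leaving out single arrays gave -0.088 to 0.12 for ATO2 and -0.082 to 0.091 for MCH1 between the wild-type groups, and -0.050 to 0.25 for MCH2 between the light groups. Against a 1.5-fold change (treat) 3, 6 and 7 members were called in the 3 comparisons, not 5, 7 and 8, and 1606, 1596 and 2230 genes in the 3 comparisons, as the null hypothesis is wider. Without single arrays members called stayed at 5 and 7 in the first and second comparison and ran from 7 to 8 in the third. Genes called, 3663, 3665 and 3944 as reported, then ran from 3512 to 3676, 3506 to 3728 and 3831 to 3970.

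Calls higher and lower over all genes, 1425 and 2238 in the first comparison, became 1774 and 1792 with quantile normalization and 880 and 2462 with the spike-ins. In the second, 2430 and 1235 became 1728 and 1775 with the S. cerevisiae median, 1875 and 1574 with quantile normalization and 3955 and 464 with the spike-ins, where the median of all genes was 0.94 and that of the members -0.63 log2. In the third, 2067 and 1877 became 2727 and 1022 with the spike-ins. Replicate numbers were shared between groups. Deviations of same-numbered arrays correlated over 0.1 (across genes) in 4, 2 and 2 of 5 pairs, and 3, 2 and 1 arrays were most like their own number. The reported fit did not take the numbers as pairs, although in the first comparison these correlations ran from 0.04 to 0.37. A replicate block left 5, 7 and 8 members called and changed no member's call.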

Other observations

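The nearest measured gene on either side of each member was read off the RefSeq gene order after the members had been described. MCH2 and JEN1 lie near one end of chromosome XI with FRE2, COS9 and SRY1 between them. FRE2, for a ferric reductase, was 0.55 ± 0.11 log2 lower in WT low density than in WT high density, where its neighbour MCH2 was 4.02 ± 0.22 lower. COS9 was at -0.40 ± 0.14 there and fell by 1.30 ± 0.14 in Rho0 low density against WT low density. The call of COS9 in the first comparison ended under another scaling of the arrays. SRY1, which lies beside JEN1, rose by 0.58 ± 0.14 and 0.63 ± 0.14 in these comparisons, in both of which JEN1 fell, and URA1 on the other side of JEN1 rose by 1.80 ± 0.19 and fell by 1.79 ± 0.19 (limma, adjusted over all genes). The rise of SRY1 in the first comparison lost its call with arrays scaled to the spike-ins.

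Next to ADY2, ADP1 rose by 1.5 ± 0.13 log2 in Rho0 low density against WT low density, where ADY2 fell by 4.85 ± 0.14. RVS161 on its other side was at -0.30 ± 0.11, which turned to 0.38 with the spike-ins.

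The neighbours of the other members moved in various ways. Beside MCH1, PBP4 was at -0.78 ± 0.24 log2 between the wild-type groups, where MCH1 was level, and at -1.06 ± 0.24 between the light groups, where MCH1 was at -0.96, and neither of the latter calls held with the spike-ins. PSA1 on the other side of MCH1, past 1 gene not measured, stood at 1.35 ± 0.13 and 0.32 ± 0.13, the second a call lost with the S. cerevisiae median. Beside ATO3, EFT2 was at -0.67 ± 0.10 between the wild-type groups, where ATO3 was at -1.88, and at 0.21 ± 0.10 between the light groups, not called, and NKP1 at -0.19 and 0.19 ± 0.15, neither called. Beside ATO2, RPC34 was at -1.48 ± 0.12 and -0.34 ± 0.12, the second turning to 0.34 with the spike-ins. On the other side of ATO2, past 2 genes not measured, CIT1, for citrate synthase, rose by 1.76 ± 0.17 and 0.69 ± 0.17.

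RRI2 near MCH4 rose by 1.90 ± 0.19 and 1.05 ± 0.19, and RPS19A on the other side was called in neither comparison (0.04 and -0.32 ± 0.19). Between MCH4 and each of them lies 1 gene not measured. Of the genes beside MCH5, RRG7 was at -0.26 ± 0.15, not called, and rose by 0.49 ± 0.15, a call lost under another scaling, and SLY41 was called in neither (0.29 and 0.16 ± 0.13). YKL222C beside MCH2 was at -0.04 and 0.34 ± 0.19, not called. With the spike-ins EFT2, NKP1, SLY41 and YKL222C were called higher in Rho0 than in WT low density. No test of neighbours as a group was made.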
